A study of Homo sapiens with 27 samples.

Results

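Activin and transforming growth factor beta (TGF-beta) signalling was followed through 10 genes: the ligand genes INHBA, INHBB and TGFB1, the activin antagonist FST, the receptors ACVR1, ACVR2A and TGFBR1, the SMAD proteins SMAD3 and SMAD7, and the secreted target TGFBI. The members were chosen by symbol, with earlier results of these data known. Every array probe that the platform's probe-to-gene table assigns to one of them was used. That gave 12 probes, with 2 each for INHBA and SMAD3, out of 30968 probes and 15207 named genes.

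RNA came from U937, a human histiocytic lymphoma line with monocytic features that the submitters call macrophages. The first group was pretreated with PBD150, an inhibitor of glutaminyl cyclase, at 10 µM for 2 h before LPS was added at 4 µg/ml. The second group received LPS at 4 µg/ml alone, and the third was untreated; each was cultured for 48 h. Each group had 3 replicates labelled biological and each replicate was read on 3 technical arrays, 27 arrays in all. All cells are of 1 line, the labels name no vehicle and no differentiation step, and no group received PBD150 without LPS, so the inhibitor can only be compared on top of LPS.

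Activins and TGF-beta are dimeric secreted ligands of one superfamily. A ligand brings together type II and type I serine/threonine kinase receptors; the type I receptor then phosphorylates SMAD2 or SMAD3, which enter the nucleus with SMAD4 and bind DNA elements that contain the letters CAGAC. INHBA and INHBB encode the beta subunits of activin A and activin B, FST (follistatin) binds activins and keeps them from their receptors, and SMAD7 is an inhibitory SMAD that the pathway itself induces. Activin A is known as a product of monocytes and macrophages exposed to LPS, and TGF-beta 1 as a cytokine that restrains macrophage activation.

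The promoters of both activin subunit genes and of both SMAD members are shown because the members of each pair moved in opposite directions. Each is 300 bases long, 250 before to 50 after a RefSeq start site on GRCh38.p14, 5′ to 3′ on the gene's strand. The windows are chr7:41703041-41703340 on the minus strand for INHBA, chr2:120345886-120346185 on the plus strand for INHBB, chr15:67065352-67065651 on the plus strand for the first of 5 listed starts of SMAD3, and chr18:48950916-48951215 on the minus strand for the first of 3 listed starts of SMAD7. Capitals mark matches to CAGAC or its reverse complement GTCTG, to TGANTCA (an AP-1 site), or to the NF-kB consensus, searched on both strands.
INHBA promoter: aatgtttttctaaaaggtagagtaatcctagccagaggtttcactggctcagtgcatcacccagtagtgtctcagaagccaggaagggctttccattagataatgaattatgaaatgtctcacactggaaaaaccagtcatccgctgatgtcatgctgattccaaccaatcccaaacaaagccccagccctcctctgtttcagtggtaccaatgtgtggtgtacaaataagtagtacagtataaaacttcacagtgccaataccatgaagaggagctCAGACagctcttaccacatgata
INHBB promoter: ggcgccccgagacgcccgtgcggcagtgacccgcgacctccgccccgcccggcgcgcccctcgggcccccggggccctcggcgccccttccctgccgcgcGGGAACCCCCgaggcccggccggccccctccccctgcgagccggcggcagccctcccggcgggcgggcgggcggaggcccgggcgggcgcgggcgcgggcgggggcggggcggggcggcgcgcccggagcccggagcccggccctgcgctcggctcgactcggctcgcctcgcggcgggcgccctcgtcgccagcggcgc
SMAD3 promoter: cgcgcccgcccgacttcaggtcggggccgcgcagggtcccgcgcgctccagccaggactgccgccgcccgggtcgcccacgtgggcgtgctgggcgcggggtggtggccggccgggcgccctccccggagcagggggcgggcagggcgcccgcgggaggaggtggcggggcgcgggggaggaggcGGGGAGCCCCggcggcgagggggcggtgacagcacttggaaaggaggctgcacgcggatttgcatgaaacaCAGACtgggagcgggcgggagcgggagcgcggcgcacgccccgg
SMAD7 promoter: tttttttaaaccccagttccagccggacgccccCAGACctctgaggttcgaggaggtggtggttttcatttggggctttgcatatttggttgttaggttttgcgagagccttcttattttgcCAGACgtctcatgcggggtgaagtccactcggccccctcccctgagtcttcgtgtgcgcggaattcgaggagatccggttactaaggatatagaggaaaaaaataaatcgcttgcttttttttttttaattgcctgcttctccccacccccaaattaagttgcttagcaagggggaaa

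Positions count from the start site, with negative ones before it. INHBA has 1 CAGAC, at 28, and no other match. INHBB has no CAGAC and 1 NF-kB match, at -150, in a window that is 88.7% G and C against 43.3% for INHBA. SMAD3 has CAGAC at 7 and an NF-kB match at -65 of its first start, and SMAD7 has CAGAC at -217 and -128 of its first start. Such matches are common: of 35116 promoter windows of the same length, 45.3% hold CAGAC or GTCTG, 7.71% hold TGANTCA and 5.91% hold the NF-kB consensus, each counted without regard to overlap with another motif. The SMAD palindrome GTCTAGAC is in 0.202% of windows and in none of those of the 10 members. A match describes letters in the window and is not evidence of binding.

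Array medians lay between 41.5 and 100.3 intensity units. The noise limit of an array, set at 3 times the typical size of its negative values (root mean square), lay between 12.9 and 18.7. Untreated replicate 1 stood apart, with array medians of 41.5 to 46.8 against 69.6 to 74.9 in the other untreated replicates. Counts without it are therefore given beside the main ones, except for the list of reported targets. For the ligand and receptor lists only the lower calls of that fit are given. The median SD between replicates over all probes was 0.373 with PBD150 plus LPS, 0.365 with LPS and 0.206 untreated, on the log2 scale. Of 10 myeloid markers 9 were measured and 8 were above noise on all 27 arrays; their summed intensity was 75900 to 85800 with PBD150 plus LPS, 81900 to 83600 with LPS and 5050 to 6640 untreated. Markers of other cell types were not at 0: 2 of 5 T-cell, 2 of 3 endothelial, 4 of 6 fibroblast, 3 of 3 measured B-cell and 0 of 3 measured epithelial markers were above noise on all 27 arrays. The T-cell list summed to 2150 to 4120 with PBD150 plus LPS, 3130 to 5530 with LPS and 1780 to 2580 untreated, and the B-cell list to 539 to 644 with PBD150 plus LPS, 660 to 879 with LPS and 821 to 1140 untreated. The endothelial list summed to 2200 to 4450 with PBD150 plus LPS, 3010 to 4720 with LPS and 571 to 805 untreated. The fibroblast list summed to 1130 to 1200 with PBD150 plus LPS, 958 to 1350 with LPS and 517 to 692 untreated, and the epithelial list to 171 to 195 with PBD150 plus LPS, 158 to 205 with LPS and 29.2 to 66 untreated. A sum is weighted to its brightest probes, so calls against untreated (limma, adjusted p under 0.05) are also given. In both comparisons 4 of 9 myeloid, 2 fibroblast, 1 T-cell, 1 endothelial and 1 epithelial marker were higher, and 0 lower. Of the B-cell markers 1 was lower in both, and 1 was higher with LPS only. Over all genes 15.3% were higher and 17.9% lower with PBD150 plus LPS, and 13.6% and 15.4% with LPS. All samples are labelled as 1 line, so these markers do not by themselves show other cells. Their part in the results was not tested.

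With LPS, INHBA was the member that moved most, and the pathway's members went in both directions. At an adjusted p under 0.05 (limma, Benjamini-Hochberg over all probes), 5 of 12 member probes were higher and 3 lower with LPS than untreated: INHBA probe 1, ACVR1, ACVR2A, SMAD7 and TGFBI rose, and INHBB, TGFBR1 and SMAD3 probe 2 fell. Over all 30968 probes, 10.6% were called higher and 11.8% lower. Replicates of the 2 groups did not overlap for 11 of 12 member probes, 6 higher and 5 lower with LPS, against 43.4% of all probes. The median absolute log2 difference was 1.06 for the member probes and 0.51 for all probes. With PBD150 plus LPS against untreated, 6 of 12 member probes were higher and 4 lower, the added ones being INHBA probe 2 and TGFB1, against 12.6% higher and 13.5% lower over all probes; 10 of 12 did not overlap, against 45.3%. The median absolute log2 difference was 1.16 for the member probes and 0.56 for all probes. INHBA probe 2, which is among the probes without overlap in both comparisons, was above noise on 5 of 27 arrays. Without untreated replicate 1, 6 member probes were called with PBD150 plus LPS and 5 with LPS: INHBB, ACVR1 and ACVR2A lost their calls in both comparisons, and TGFB1 lost its call with PBD150 plus LPS. In that fit 8.96% of all probes were higher and 10.2% lower with PBD150 plus LPS, and 7.64% higher and 8.33% lower with LPS. Without untreated replicate 2, 4 member probes were higher and 2 lower with PBD150 plus LPS, against 8.39% and 9.57% of all probes. With LPS 3 were higher and 2 lower, against 7.28% and 7.8%. Without untreated replicate 3, 4 were higher and 2 lower in both comparisons. All probes then had 8.79% and 10% with PBD150 plus LPS, and 7.51% and 8.22% with LPS. The loss of calls was thus not particular to replicate 1. On the values as deposited, without scaling between arrays, 6 member probes were higher and 2 lower with PBD150 plus LPS, against 16.3% and 9.91% of all probes. With LPS 6 were higher and 1 lower, against 19.2% and 7.12% of all probes. Both comparisons use the same untreated replicates. The members were chosen with earlier results of these data known, so these counts describe them and are no test against all probes. In a bulk sample of 1 line, fewer cells that express a gene and less RNA per cell cannot be told apart.

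**Figure D1:**
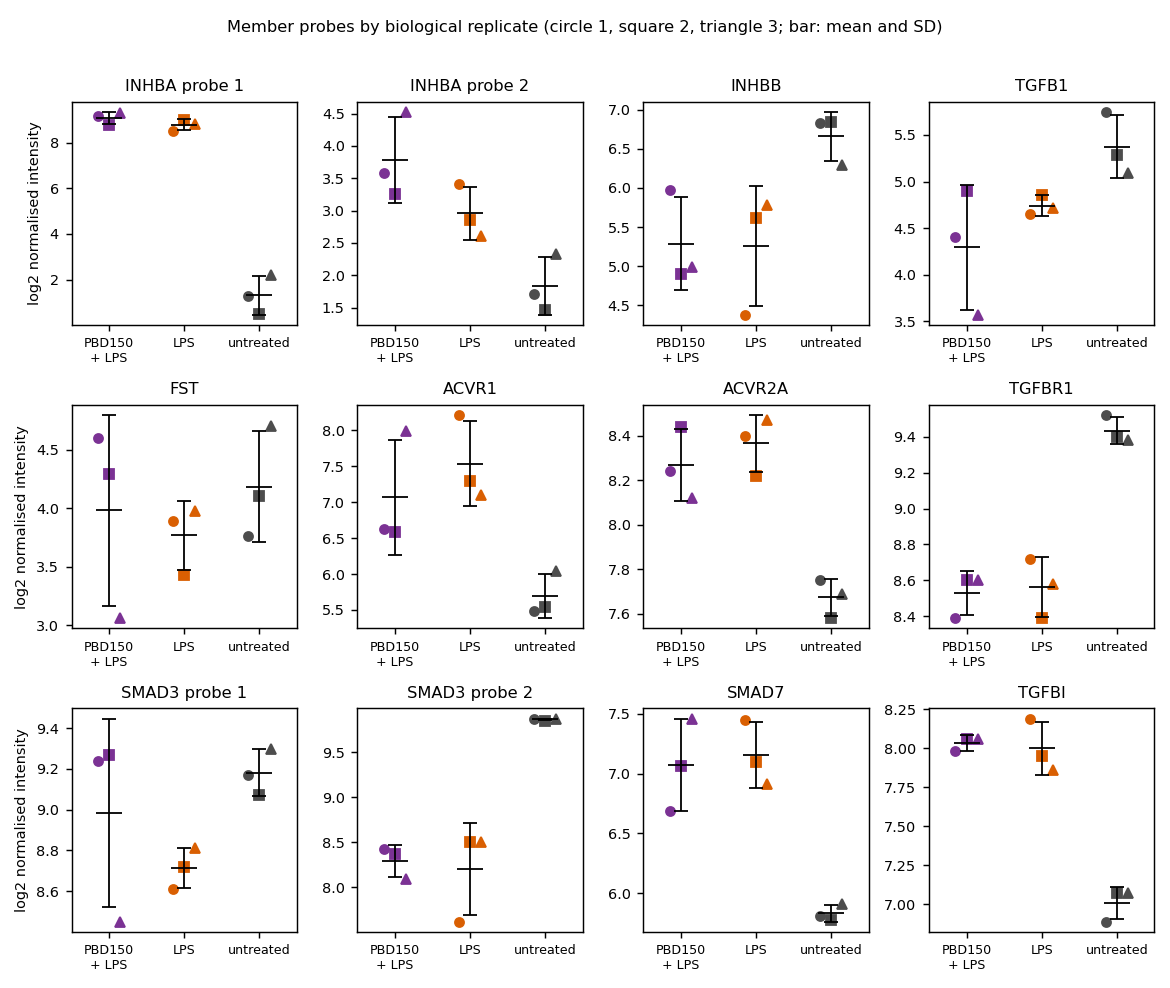
Log2 normalised intensity (vertical axis, a separate scale for each panel) of each member probe in the 3 replicates of PBD150 plus LPS, LPS and untreated cells, with the mean and SD as bars. INHBA probe 1 sits near 9 in all treated replicates and between 0.48 and 2.19 in untreated ones, while SMAD3 probe 2 and TGFBR1 sit above both treated groups in untreated cells.

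Among the ligands, INHBA was read by a bright and a dim probe. INHBA probe 1 had log2 intensities of 9.19, 8.78 and 9.29 with PBD150 plus LPS and 8.53, 9.01 and 8.81 with LPS, against 1.28, 0.48 and 2.19 untreated. It was above noise on 9 of 9 arrays of either treated group and on 0 of 9 untreated arrays, where deposited intensities lay between -9.93 and 10.9. The untreated cells therefore have only an upper bound, and every treated replicate was far above it. Set against that bound, the INHBA level was at least 32.8-fold higher with PBD150 plus LPS (log2 means 9.09, and 1.32 untreated; adjusted p 1.1e-05 by limma) and at least 26.6-fold higher with LPS (log2 means 8.78, and 1.32 untreated; adjusted p 1.52e-05). The fitted log2 differences, 7.77 with PBD150 plus LPS and 7.47 with LPS, depend on how values near 0 are treated and are not bounds.

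INHBA probe 2 was above noise on 5 of 27 arrays: 3 with PBD150 plus LPS, 1 with LPS and 1 untreated. Its median deposited intensity was 12.1 with PBD150 plus LPS, 10.1 with LPS and 2.08 untreated. All lie below the lowest noise limit, 12.9. Its values were 3.58, 3.25 and 4.53 with PBD150 plus LPS, 3.41, 2.86 and 2.60 with LPS, and 1.71, 1.46 and 2.33 untreated. Both treated groups lay above the untreated one without overlap, in the same direction as probe 1, but mostly at noise level. The differences of probe 2 therefore have no fixed size. The log2 difference was 1.95 with PBD150 plus LPS (adjusted p 0.00665 by limma) and 1.12 with LPS (adjusted p 0.0723), which missed the threshold but passed in 3 of 17 alternatives. Which part of the transcript each probe of this gene reads is not given in the files used here.

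INHBB, the other activin beta subunit, went the opposite way. It had log2 intensities of 5.97, 4.90 and 4.99 with PBD150 plus LPS, 4.38, 5.62 and 5.78 with LPS, and 6.83, 6.85 and 6.30 untreated. Each untreated replicate was above each treated one. The probe was above noise on 8 of 9 arrays with PBD150 plus LPS, 7 of 9 with LPS and 9 of 9 untreated. Deposited intensities went down to 15.5 with PBD150 plus LPS and 11.8 with LPS, so some treated arrays read it near noise. It fell by 1.38 on the log2 scale with PBD150 plus LPS (SE 0.43, adjusted p 0.0463 by limma) and by 1.40 with LPS (SE 0.43, adjusted p 0.0481). Both calls lie close to the threshold, and LPS replicate 1 was the lowest value: without it the LPS difference was -0.97 (adjusted p 0.097). Without untreated replicate 1 the differences were -1.29 with PBD150 plus LPS (adjusted p 0.121) and -1.32 with LPS (adjusted p 0.129).

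TGFB1, the gene of the TGF-beta 1 precursor, had values of 4.40, 4.90 and 3.57 with PBD150 plus LPS, 4.65, 4.86 and 4.72 with LPS, and 5.75, 5.29 and 5.09 untreated. Untreated replicates were above all treated ones, by a small margin. The fall of 1.08 on the log2 scale with PBD150 plus LPS had an adjusted p of 0.0456 (limma), and the difference of -0.63 with LPS missed the threshold (adjusted p 0.226). Without untreated replicate 1 the difference with PBD150 plus LPS was -0.89 (adjusted p 0.14). The probe was above noise on 6 of 9 arrays with PBD150 plus LPS, 8 of 9 with LPS and 9 of 9 untreated, so it is read near its lower limit.

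FST, the activin antagonist, did not differ past the threshold. It had values of 4.60, 4.29 and 3.06 with PBD150 plus LPS, 3.89, 3.43 and 3.98 with LPS, and 3.76, 4.10 and 4.70 untreated. The 3 groups overlapped. The log2 differences from untreated were -0.20 with PBD150 plus LPS (adjusted p 0.764 by limma) and -0.42 with LPS (adjusted p 0.532). FST was above noise on 6 of 9 arrays with PBD150 plus LPS, 5 of 9 with LPS and 5 of 9 untreated, so it is read near its lower limit.

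The receptors did not move together. ACVR1, a type I receptor also known as ALK2, had values of 6.62, 6.59 and 7.99 with PBD150 plus LPS, 8.21, 7.29 and 7.10 with LPS, and 5.49, 5.54 and 6.04 untreated. All treated replicates were above all untreated ones, with PBD150 plus LPS replicate 3 and LPS replicate 1 well above the rest of their groups. ACVR1 rose by 1.37 on the log2 scale with PBD150 plus LPS (SE 0.44, adjusted p 0.0499 by limma) and by 1.84 with LPS (SE 0.44, adjusted p 0.0174). Without untreated replicate 1 the differences were 1.28 with PBD150 plus LPS (adjusted p 0.13) and 1.74 with LPS (adjusted p 0.0599).

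ACVR2A, a type II activin receptor, showed a smaller shift with a narrower spread. Its values were 8.24, 8.44 and 8.12 with PBD150 plus LPS, 8.40, 8.22 and 8.47 with LPS, and 7.75, 7.58 and 7.69 untreated. No treated replicate came down to an untreated one. The rise was 0.60 on the log2 scale with PBD150 plus LPS (adjusted p 0.0356 by limma) and 0.69 with LPS (adjusted p 0.0219). Without untreated replicate 1 they were 0.63 with PBD150 plus LPS (adjusted p 0.0799) and 0.73 with LPS (adjusted p 0.0577).

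TGFBR1, the type I receptor of TGF-beta also known as ALK5, fell. It had values of 8.39, 8.60 and 8.60 with PBD150 plus LPS, 8.72, 8.39 and 8.58 with LPS, and 9.52, 9.40 and 9.38 untreated. The untreated replicates sat together, above every treated one. The probe differed by -0.90 on the log2 scale with PBD150 plus LPS (SE 0.17, adjusted p 0.00559 by limma) and by -0.87 with LPS (SE 0.17, adjusted p 0.00752). On the values as deposited the LPS difference was -0.56 (adjusted p 0.0763).

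**Figure D2:**
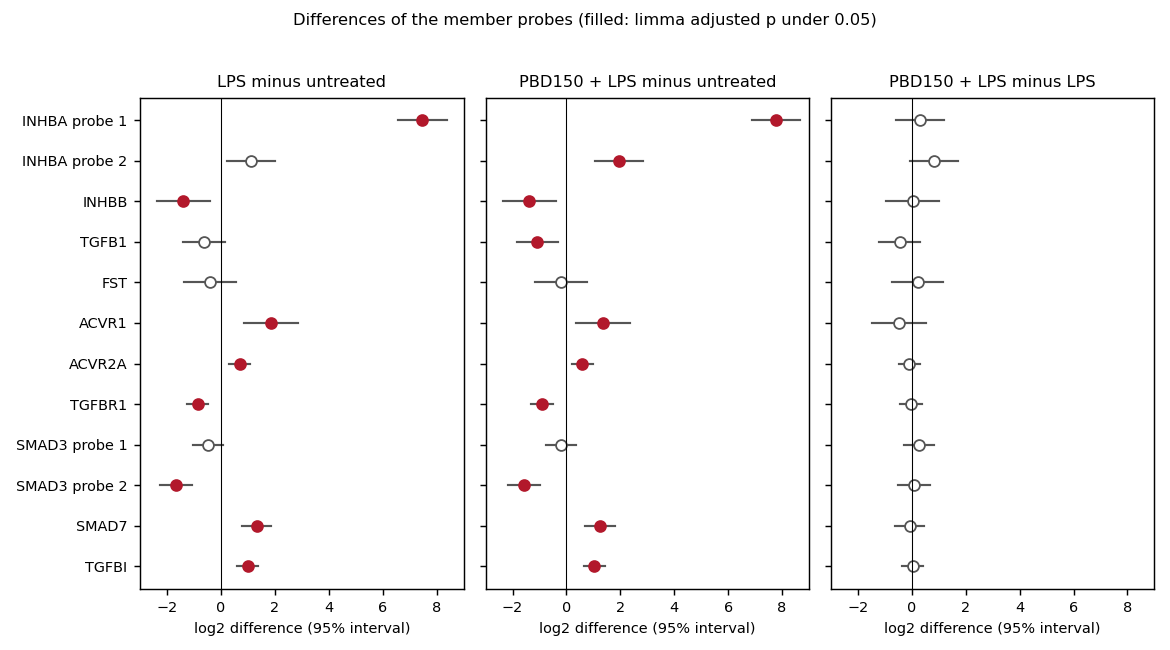
Log2 differences (horizontal axis) of the 12 member probes with 95% intervals, in LPS minus untreated, PBD150 plus LPS minus untreated, and PBD150 plus LPS minus LPS; filled points have a limma adjusted p under 0.05. Filled points lie on both sides of 0 in the 2 comparisons with untreated cells, and every interval in the comparison of PBD150 plus LPS with LPS spans 0.

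SMAD3, which carries the activin and TGF-beta signal to the nucleus, was read by 2 probes that did not respond equally. SMAD3 probe 2 had values of 8.42, 8.37 and 8.09 with PBD150 plus LPS, 7.62, 8.50 and 8.50 with LPS, and 9.87, 9.85 and 9.87 untreated. The untreated replicates were nearly alike and above every treated one. The log2 difference was -1.57 with PBD150 plus LPS (SE 0.26, adjusted p 0.00275 by limma) and -1.66 with LPS (SE 0.26, adjusted p 0.00243).

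SMAD3 probe 1 had values of 9.24, 9.27 and 8.45 with PBD150 plus LPS, 8.61, 8.72 and 8.81 with LPS, and 9.17, 9.07 and 9.30 untreated. LPS replicates were all below untreated ones, while 2 of the 3 replicates with PBD150 plus LPS lay among the untreated values. Neither the difference of -0.20 with PBD150 plus LPS (adjusted p 0.601 by limma) nor that of -0.47 with LPS (adjusted p 0.218) passed the threshold. So the fall of SMAD3 rests on 1 of its 2 probes.

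SMAD7, the inhibitory SMAD, rose in both comparisons. It had values of 6.69, 7.06 and 7.46 with PBD150 plus LPS, 7.45, 7.10 and 6.91 with LPS, and 5.81, 5.78 and 5.91 untreated. The treated replicates were all above the untreated ones, which differed little among themselves. SMAD7 rose by 1.24 on the log2 scale with PBD150 plus LPS (SE 0.24, adjusted p 0.00613 by limma) and by 1.32 with LPS (SE 0.24, adjusted p 0.00507).

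TGFBI, a secreted matrix protein named for its induction by TGF-beta, also rose. It had values of 7.98, 8.06 and 8.06 with PBD150 plus LPS, 8.19, 7.95 and 7.86 with LPS, and 6.89, 7.07 and 7.07 untreated. Both treated groups were close together and clear of the untreated one. The log2 difference was 1.03 with PBD150 plus LPS (SE 0.17, adjusted p 0.0027 by limma) and 0.99 with LPS (SE 0.17, adjusted p 0.00364). The TGFBI probe thus rose in the same samples in which TGFBR1 fell.

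Ratios between probes on the same array do not change when the array is multiplied by 1 factor, but other scalings can change their size. They were taken from the values as deposited, with values under 1 set to 1. The log2 ratio of SMAD7 over SMAD3 probe 2, as a change from its untreated mean, was 2.51, 2.92 and 3.52 with PBD150 plus LPS and 4.00, 2.77 and 2.58 with LPS, against -0.24, 0.09 and 0.15 untreated. Over the other SMAD3 probe it was 1.05, 1.37 and 2.45 with PBD150 plus LPS and 2.29, 1.86 and 1.60 with LPS, against -0.22, 0.19 and 0.03 untreated. With either probe, SMAD7 gained on SMAD3 in every treated replicate. Each pair, here and below, sets a probe with a higher mean in treated cells over one with a lower mean. A gain therefore follows from the differences given above and is no separate result.

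The ratio of ACVR2A over TGFBR1 changed by 1.68, 1.67 and 1.33 with PBD150 plus LPS and by 1.47, 1.66 and 1.72 with LPS, against -0.01, -0.07 and 0.08 untreated. That of ACVR1 over TGFBR1 changed by 2.09, 1.93 and 3.22 with PBD150 plus LPS and by 3.31, 2.76 and 2.40 with LPS, against -0.41, -0.07 and 0.48 untreated. Both receptors gained on TGFBR1 in all treated replicates. INHBA probe 1 over INHBB changed by 8.18, 8.95 and 9.49 with PBD150 plus LPS and by 9.26, 8.37 and 8.10 with LPS, against -0.10, -1.04 and 1.14 untreated. Since INHBA was below noise in untreated cells, this last change has no fixed size.

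**Figure D3:**
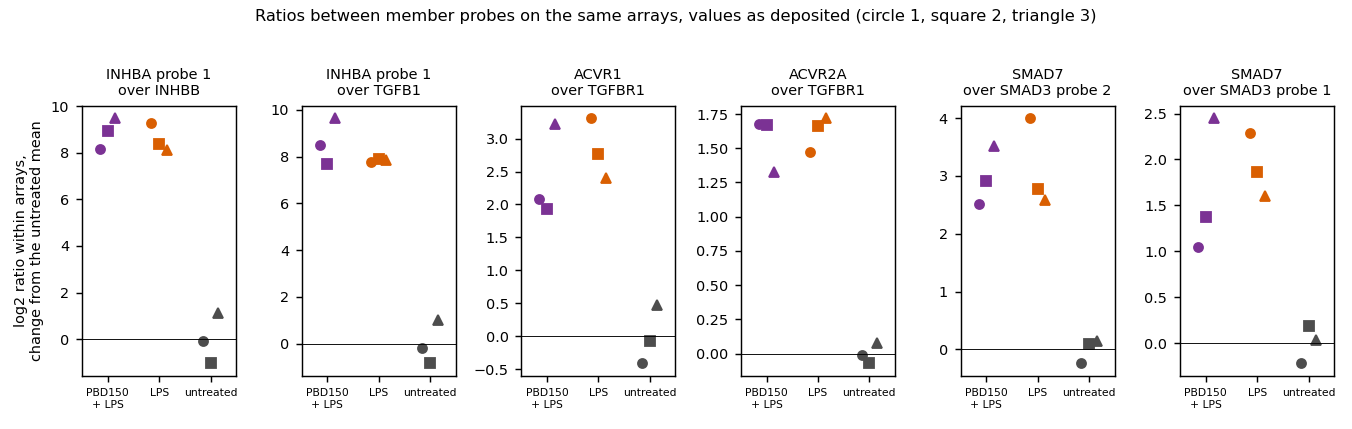
Change of the log2 ratio between 2 member probes on the same arrays from its untreated mean (vertical axis, a separate scale for each panel), 1 point a replicate, from the values as deposited. In all 6 panels every replicate with PBD150 plus LPS or LPS lies above every untreated replicate, and the treated groups overlap. Each panel sets a probe with a higher mean in treated cells over one with a lower mean, so this separation is no separate result.

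With PBD150 given before LPS, no member passed the threshold relative to LPS alone. Of the 12 probes, 0 were higher and 0 lower, 0 had an unadjusted p under 0.05, and 0 separated the replicates, against 7.98% of all probes. Over all 30968 probes 0% were called higher and 0% lower by limma, with a smallest adjusted p of 0.414; 1582 had an unadjusted p under 0.05, 633 higher and 949 lower. A fit to all 27 arrays with the replicate as a random block called 14 probes in all and 0 members. The median absolute log2 difference was 0.15 for the member probes and 0.24 for all probes.

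The 95% intervals of these differences lay within a 2-fold change either way for 6 of 12 probes and within 4-fold for all 12. INHBA probe 1 differed by 0.30 (-0.60 to 1.21) on the log2 scale, ACVR2A by -0.10 (-0.49 to 0.30) and TGFBR1 by -0.03 (-0.43 to 0.36). SMAD7 differed by -0.08 (-0.63 to 0.47) and TGFBI by 0.03 (-0.35 to 0.42).

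The remaining probes include the dimmest ones. INHBA probe 2 differed by 0.83 (-0.06 to 1.71), ACVR1 by -0.47 (-1.47 to 0.54), and INHBB by 0.03 (-0.96 to 1.01). TGFB1 differed by -0.45 (-1.22 to 0.32) and FST by 0.21 (-0.74 to 1.17). For SMAD3, probe 1 differed by 0.27 (-0.29 to 0.83) and probe 2 by 0.09 (-0.51 to 0.68). All 12 adjusted p-values lay between 0.906 and 0.991 (limma), and a p above the threshold does not show that the groups are alike.

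The other genes of the pathway were taken in 6 lists, with each gene read by its brightest probe. Of 118 listed genes 110 were measured, and 25 were higher and 6 lower with LPS than untreated, 22.7% and 5.45%, against 13.6% and 15.4% of all 15207 genes. With PBD150 plus LPS, 30 were higher and 7 lower than untreated, 27.3% and 6.36%, against 15.3% and 17.9% of all genes. Without untreated replicate 1 they were 23 higher and 5 lower with PBD150 plus LPS and 21 higher and 3 lower with LPS, against 11.3% higher and 13.9% lower over all genes with PBD150 plus LPS and 10.2% higher and 11.1% lower with LPS. On the values as deposited, without scaling between arrays, the lists had 32 higher and 2 lower with PBD150 plus LPS, against 18.4% and 13.5% of all genes, and 37 higher and 2 lower with LPS, against 21.8% and 9.44% of all genes. The lists were chosen with earlier results of these data known, so these counts describe them and are no test against all genes. PBD150 plus LPS against LPS had 0 calls in each list, as over all genes (0% higher and 0% lower).

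Among receptors and co-receptors, 7 of 13 measured were higher with PBD150 plus LPS (53.8%, against 15.3% of all genes) and 5 with LPS (38.5%, against 13.6%). In both comparisons 0 were lower, against 17.9% of all genes with PBD150 plus LPS and 15.4% with LPS. Without untreated replicate 1, 0 were lower as well, against 13.9% and 11.1%. The list was chosen with earlier results known and leaves out the member receptors ACVR1, ACVR2A and TGFBR1. Of these, TGFBR1 fell in both comparisons. The median log2 difference was 0.99 in both comparisons, against 0.06 over all genes with PBD150 plus LPS and 0.05 with LPS. ACVRL1 (ALK1), a type I receptor studied mostly in endothelium, was below noise on every untreated array and above it on every treated one. It was at least 10.9-fold higher with PBD150 plus LPS (log2 means 7.50, and 1.11 untreated; adjusted p 9.63e-05 by limma) and at least 14.8-fold higher with LPS (log2 means 7.93, and 1.11 untreated; adjusted p 8.7e-05); its other probe differed by 1.98 with PBD150 plus LPS and 1.77 with LPS. Endoglin (ENG), a co-receptor found on endothelium and activated monocytes, rose by 1.72 on the log2 scale with PBD150 plus LPS and by 1.62 with LPS. The co-receptor betaglycan (TGFBR3) rose by 2.37 with PBD150 plus LPS and by 1.93 with LPS, and the type II activin receptor ACVR2B rose by 1.40 with PBD150 plus LPS and by 1.29 with LPS. TGFBR1 thus fell in the samples in which these receptors rose. The summed endothelial markers given above were also higher in treated cells, with 1 of 3 called. All samples are labelled as 1 line, and the part of these markers in this was not tested.

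Among the ligands, 3 of 21 were higher and 1 lower with PBD150 plus LPS (14.3% and 4.76%, against 15.3% and 17.9% of all genes). With LPS 2 were higher and 1 lower (9.52% and 4.76%, against 13.6% and 15.4%). Without untreated replicate 1, 0 were lower in either comparison, against 13.9% of all genes with PBD150 plus LPS and 11.1% with LPS. BMP7, a bone morphogenetic protein, rose by 2.04 with PBD150 plus LPS (adjusted p 0.0154 by limma) and by 2.42 with LPS (adjusted p 0.008). TGFB3, which encodes another TGF-beta isoform, rose by 1.72 with PBD150 plus LPS (adjusted p 0.00463) and by 1.44 with LPS (adjusted p 0.0122). AMH, the anti-Müllerian hormone, fell by 0.62 with PBD150 plus LPS (adjusted p 0.0413) and by 0.77 with LPS (adjusted p 0.0193). GDF5, a growth and differentiation factor, rose by 0.72 with PBD150 plus LPS (adjusted p 0.0446) and differed by 0.64 with LPS (adjusted p 0.073).

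Latency and extracellular regulators, which hold ligands inactive or release them, had 9 of 25 higher and 1 lower with PBD150 plus LPS. These are 36% and 4%, against 15.3% and 17.9% of all genes. With LPS 8 were higher and 1 lower (32% and 4%, against 13.6% and 15.4%). Without untreated replicate 1, 7 were higher and 2 lower with PBD150 plus LPS, against 11.3% and 13.9% of all genes. In that fit 6 were higher and 0 lower with LPS, against 10.2% and 11.1%. ITGB5, the beta subunit of an integrin that can activate latent TGF-beta, rose by 4.06 with PBD150 plus LPS (adjusted p 7.3e-06 by limma) and by 4.13 with LPS (adjusted p 8.54e-06). Its other probe differed by 2.51 with PBD150 plus LPS and 2.46 with LPS. MMP14, a membrane-bound protease, rose by 2.10 with PBD150 plus LPS and by 1.76 with LPS. Decorin (DCN), a proteoglycan that binds TGF-beta, rose by 2.21 with PBD150 plus LPS and by 1.69 with LPS; it is also a fibroblast marker, and the part of the fibroblast list in this was not tested. LTBP1, a latent TGF-beta binding protein, rose by 1.38 with PBD150 plus LPS and by 0.95 with LPS (adjusted p 0.0073). Thrombospondin (THBS1), an activator of latent TGF-beta, was above noise on 8 of 9 arrays with PBD150 plus LPS, 6 of 9 with LPS and 0 of 9 untreated. It was at least 2.14-fold higher with PBD150 plus LPS (log2 means 5.15, and 1.51 untreated; adjusted p 0.00118) and at least 1.18-fold higher with LPS (log2 means 4.30, and 1.51 untreated; adjusted p 0.00516).

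**Figure D4:**
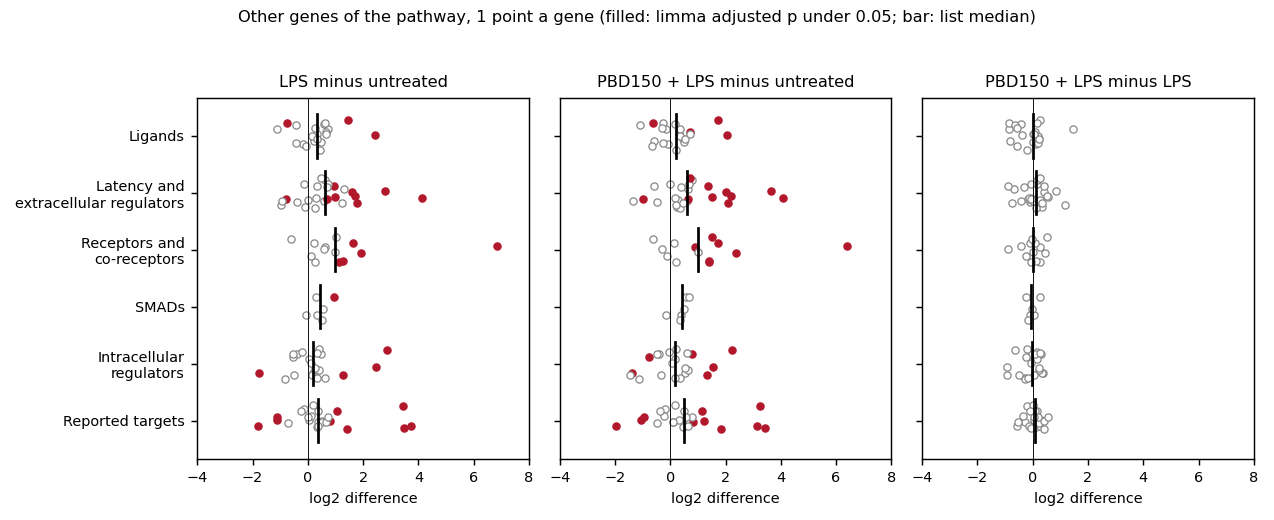
Log2 differences (horizontal axis) of the measured genes in 6 pathway lists, 1 point a gene read by its brightest probe, for the 3 comparisons; filled points have a limma adjusted p under 0.05 and the bar is the list's median. In both comparisons with untreated cells the receptor list has its median at 0.99 and no filled point below 0. No point is filled for PBD150 plus LPS against LPS. The lists leave out the members, among them TGFBR1, which fell.

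The SMAD list had 0 of 6 called with PBD150 plus LPS, against 15.3% higher and 17.9% lower over all genes. With LPS 1 was higher (16.7%, against 13.6% of all genes) and 0 lower (against 15.4%). That 1 was not called without untreated replicate 1. SMAD2, the partner of SMAD3 in this pathway, differed by 0.68 with PBD150 plus LPS (adjusted p 0.0904 by limma) and rose by 0.93 with LPS (adjusted p 0.0338), while its other probes differed by -0.95 and -0.92 with LPS and did not pass. SMAD1, which serves bone morphogenetic proteins, differed by 0.55 with PBD150 plus LPS (adjusted p 0.128) and by 0.30 with LPS (adjusted p 0.418).

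Intracellular regulators had 4 of 21 higher and 2 lower with PBD150 plus LPS (19% and 9.52%, against 15.3% and 17.9% of all genes). With LPS 3 were higher and 1 lower (14.3% and 4.76%, against 13.6% and 15.4%). Without untreated replicate 1, 1 was higher and 1 lower with PBD150 plus LPS, against 11.3% and 13.9% of all genes. In that fit 3 were higher and 1 lower with LPS, against 10.2% and 11.1%. NEDD4L, a ubiquitin ligase that acts on SMAD2 and SMAD3, fell by 1.40 with PBD150 plus LPS (adjusted p 0.000978 by limma) and by 1.77 with LPS (adjusted p 0.000362). USP4, a deubiquitinase, rose by 1.32 with PBD150 plus LPS and by 1.26 with LPS. SMURF1, a ubiquitin ligase, rose by 0.77 with PBD150 plus LPS (adjusted p 0.0219) and differed by 0.48 with LPS (adjusted p 0.125). SKIL (SnoN), a repressor of SMAD-driven transcription, was below noise on every untreated array. It was at least 1.00-fold with PBD150 plus LPS (log2 means 4.06, and 1.83 untreated; adjusted p 0.0231), which fixes no size, and at least 1.58-fold higher with LPS (log2 means 4.71, and 1.83 untreated; adjusted p 0.00804). LDLRAD4, a membrane protein that dampens TGF-beta signalling, rose by 1.54 with PBD150 plus LPS (adjusted p 0.0427) and by 2.45 with LPS (adjusted p 0.00629) by its brightest probe. Its other probe, above noise on 2 of 27 arrays, differed by -1.73 with PBD150 plus LPS and -0.91 with LPS and did not pass.

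Reported targets had 7 of 24 higher and 3 lower with PBD150 plus LPS (29.2% and 12.5%, against 15.3% and 17.9% of all genes). With LPS 6 were higher and 3 lower (25% and 12.5%, against 13.6% and 15.4%). Fibronectin (FN1) rose by 3.15 with PBD150 plus LPS and by 3.71 with LPS. TSC22D3, a glucocorticoid-induced leucine zipper protein, rose by 3.43 with PBD150 plus LPS and by 3.49 with LPS, and SNAI1, a zinc finger repressor, by 1.84 with PBD150 plus LPS and by 1.42 with LPS. ID1, an inhibitor of DNA binding that bone morphogenetic proteins induce, fell by 1.96 with PBD150 plus LPS (adjusted p 0.000568 by limma) and by 1.82 with LPS (adjusted p 0.000964). Targets thus moved in both directions, as did the members and genes as a whole.

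Relative to LPS alone, no listed gene passed the threshold with PBD150 plus LPS. The genes nearest to it in each list were BMP5 (-0.85, adjusted p 0.884 by limma) and TGFB2 (1.47) among ligands, LTBP1 (0.42) and CHRD (1.17) among extracellular regulators, TGFBR3 (0.43) and BMPR1A (-0.25) among receptors, and SMAD1 (0.25) and SMAD2 (-0.25) among SMADs. Among intracellular regulators they were TGFBRAP1 (-0.93) and LDLRAD4 (-0.92), and among targets PDGFB (-0.54) and SNAI1 (0.41). Apart from BMP5 each had an adjusted p of 0.906. TGFB2 was above noise on 2 of 9 arrays with PBD150 plus LPS and 0 of 9 with LPS, CHRD on 3 of 9 with PBD150 plus LPS and 0 of 9 with LPS, and a second BMPR1A probe differed by 0.21.

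Genes with the most similar pattern were found by the root mean square log2 difference over the 9 replicates, after subtracting each probe's untreated mean. For INHBA that mean lies below noise, so its neighbours and their order depend on how values near 0 were treated, and no distance is given. The genes found were TDO2, a tryptophan dioxygenase, MMP1, a collagenase, and CCL4L2, a chemokine, each above noise on all 9 untreated arrays. TDO2 differed from untreated by 7.49 with PBD150 plus LPS and 7.95 with LPS, MMP1 by 7.21 with PBD150 plus LPS and 7.37 with LPS, and CCL4L2 by 7.45 with PBD150 plus LPS and 7.89 with LPS.

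Nearest to TGFB1 were GPRC5C (0.258), GNL3L (0.264) and MRPS10 (0.273), and nearest to TGFBI were AP2A2 (0.0731), CCDC57 (0.0866) and C8orf44 (0.0934). AP2A2, a subunit of the clathrin adaptor, differed from untreated by 0.97 with PBD150 plus LPS and 1.02 with LPS, and TGFBI by 1.03 with PBD150 plus LPS and 0.99 with LPS.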

How the data were processed

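Total RNA (2.5 µg) from U937 cells was amplified and labelled with Cy5 for Phalanx OneArray slides (1 colour), per the labels' protocols. The deposited intensity values are linear, for 30968 probes on 27 arrays; some lie below 0, so background had been subtracted before deposit. The sources used here do not give the scanner, background method, scaling or array genome build. Of the probes, 17397 carry 1 gene symbol and 13571 are unnamed here; 14670 symbols were current in RefSeq, 2645 were updated and 82 kept as given.

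Values under 1 were set to 1, log2 was taken, and the 27 arrays were quantile normalised, because array medians differed by more than 0.5 on the log2 scale; the 3 technical arrays of a replicate were then averaged. Tests used limma 3.58.1 in R 4.3.3: group means were fitted over the 9 replicates with moderated variances, and two-sided p-values were adjusted by Benjamini-Hochberg over all 30968 probes, with a threshold of 0.05. The number of arrays limits the precision. The labels call the replicates biological, and nothing says how independent the cultures were, so p-values measure the spread between these replicates. Same-numbered replicates did not deviate together (correlations between -0.219 and 0.036), so no block was used. A probe not above noise on any array of a group has only a bound there: the fold uses, per array, the higher of its own value and the lowest value above the limit. The fitting steps were tested on simulated data.

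Members and lists were chosen with earlier results of these data known. Named genes were all members, up to 4 list genes by smallest p among those past the threshold (otherwise up to 2) in each comparison, and the 3 nearest patterns of INHBA, TGFB1 and TGFBI among genes at or above the median level. Alternatives were other scalings, a pseudocount of 16, a filter on dim probes, 2 groups only, a replicate block, all arrays with a random block (correlation 0.239), array weights, another variance model, leaving out each replicate and, for the lists, the mean of a gene's probes and a fit without untreated replicate 1, which was chosen after seeing the data. Promoters are from RefSeq (GRCh38.p14); all 10 members were matched.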

Additional observations from a re-analysis of the deposited data

How the results depend on the processing

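No called member changed direction under any alternative run for it, 18 for each member probe except INHBA probe 2, which the filter on dim probes left out and which had 17. INHBA probe 1, SMAD3 probe 2, SMAD7 and TGFBI kept their calls against untreated in all of them, and so did TGFBR1 and INHBA probe 2 with PBD150 plus LPS; TGFBR1 with LPS lost its call on the values as deposited (-0.56, adjusted p 0.0763). Other calls were lost more often: with LPS, INHBB was lost in 10 alternatives, ACVR2A in 6 and ACVR1 in 2; with PBD150 plus LPS, TGFB1 and ACVR1 were each lost in 11, INHBB in 8 and ACVR2A in 7. Calls with LPS were gained for INHBA probe 2 on the values as deposited (adjusted p 0.0347), with array weights (0.0305) and without PBD150 plus LPS replicate 3 (0.0349), and for SMAD3 probe 1 with all arrays and a random block (0.0436). The count of called member probes was 5 to 8 for LPS (8 with all replicates) and 6 to 9 for PBD150 plus LPS (10) when 1 replicate was left out; it was 5 without untreated replicate 1 or 2 for LPS, and 6 without untreated replicate 1, 2 or 3 for PBD150 plus LPS. With the replicate block it was 6 for each, and same-numbered replicates did not deviate together. Fewer samples were fitted without a replicate; the cause was not tested. No alternative called a member between PBD150 plus LPS and LPS. On the values as deposited the median probe shifted by 0.31 with PBD150 plus LPS and 0.41 with LPS, 5935 probes were higher and 2205 lower with LPS (2279 and 3806 with median centring, 3292 and 3664 as reported), the members split 6 higher and 2 lower with PBD150 plus LPS and 6 and 1 with LPS, and the lists had 2 lower calls in place of 7 with PBD150 plus LPS and 2 in place of 6 with LPS (3 with LPS without untreated replicate 1, an alternative chosen after seeing the data). Signs changed only among differences that were not called. Against untreated with PBD150 plus LPS, FST was 0.0122 with array weights and -0.51 to 0.259 with a replicate left out, and SMAD3 probe 1 was -0.338 to 0.0704. Against LPS with PBD150 plus LPS, values as deposited gave -0.153 for INHBB, -0.0673 for SMAD3 probe 2 and -0.107 for TGFBI; array weights gave -0.20 for INHBB, 0.0038 for ACVR2A, 0.0393 for TGFBR1 and -0.059 for SMAD3 probe 2; and leaving out a replicate gave -0.411 to 0.287 for INHBB, -0.094 to 0.675 for FST, -0.12 to 0.0463 for TGFBR1, -0.206 to 0.237 for SMAD3 probe 2, -0.276 to 0.109 for SMAD7 and -0.0344 to 0.129 for TGFBI. Signal near noise limits FST, TGFB1, INHBA probe 2 and, in treated cells, INHBB, and 3 replicates per group limit all tests.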
